A study of Rattus norvegicus with 10 samples.

Results

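NRF2 targets and antioxidant enzymes were compared between the livers of rats that ate an iron-deficient diet for 3 days and those of pair-fed rats. The set held 10 genes (Nqo1, Gclc, Gclm, Txnrd1, Srxn1, Cat, Sod1, Sod2, Gpx1 and Prdx1), and a gene was measured where the array annotation pairs a probe set with that gene alone. By this rule 9 of the 10 genes were measured, by 13 probe sets, of 14217 genes with such a probe set on the array. The probe set of Prdx1, a peroxiredoxin, is shared with Prdx1l1 in the annotation and was left out. Liver RNA came from male Sprague-Dawley rats labelled as 5 weeks old, with 1 Affymetrix rat genome array per rat. The iron-deficient group (n = 5) ate a diet with about 3 ppm iron freely for 3 days, and the pair-fed group (n = 5) was given the control diet with 48 ppm iron in matched amounts. Both groups had first eaten the control diet and were trained to a daily feeding window, and livers were taken 1.5 h after feeding began on the last day. The source field of the control samples names the iron-deficient diet, and they were taken as pair-fed by their titles and treatment labels.

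NRF2, encoded by Nfe2l2, is a transcription factor that the adaptor protein KEAP1 marks for degradation. When electrophiles or oxidants modify KEAP1, NRF2 accumulates, pairs with small MAF proteins and binds antioxidant response elements near genes of glutathione synthesis, thioredoxin reduction and quinone detoxification. The abundant enzymes of the liver that remove superoxide and hydrogen peroxide (superoxide dismutases, catalase, glutathione peroxidase) are present without such induction, and catalase carries heme iron.

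The core of the antioxidant response element, TGACNNNGC on either strand, was searched in the RefSeq promoters of the rat assembly GRCr8, windows of 300 bases around each gene start of which most lies before the start. It occurred in 4 of the 11 promoters of the 10 genes, and in 4038 of all 33469 promoters (12.1%). The matches lay in the promoters of Gclm, Txnrd1 (at 1 of its 2 starts), Sod2 and Prdx1. Sequence outside these windows was not searched, so a gene without a match, such as Nqo1 or Gclc, may have the element farther away. Stretches of the promoters of 3 measured genes are shown for their match, and that of Srxn1 for its 3 matches to TGAGNNNGC, a related motif chosen after the promoters were read. The stretches run 5′ to 3′ on the strand of the gene, and capitals mark the matches, which on the opposite strand read GCNNNGTCA or GCNNNCTCA. TGAGNNNGC occurred in 17.2% of all promoters and, of the set, in those of Srxn1 and Gpx1. The 2 motifs differ at 1 base and share no match.
Gclm (chr2:213031923-213032011, plus strand): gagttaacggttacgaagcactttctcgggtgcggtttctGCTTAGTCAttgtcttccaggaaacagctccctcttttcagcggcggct
Txnrd1 (chr7:22755934-22756022, minus strand): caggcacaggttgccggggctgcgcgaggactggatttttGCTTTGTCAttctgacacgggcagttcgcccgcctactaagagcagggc
Sod2 (chr1:50050169-50050243, minus strand): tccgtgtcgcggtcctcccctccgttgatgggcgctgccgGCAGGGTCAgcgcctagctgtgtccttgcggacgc
Srxn1 (chr3:161064654-161064815, plus strand): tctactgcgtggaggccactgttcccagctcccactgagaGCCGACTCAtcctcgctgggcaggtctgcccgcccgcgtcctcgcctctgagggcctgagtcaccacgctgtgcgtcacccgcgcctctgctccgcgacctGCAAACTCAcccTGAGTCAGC
The match began 172 bases before the gene start in Gclm, 78 before it in Txnrd1 and 35 before it in Sod2, and the 3 matches in Srxn1 began 118, 17 and 5 bases before it. A match is a description of these letters and was not tested as a binding site.

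None of the 9 measured genes passed the test for a difference between the diets. By rank products, which rank each probe set's difference over the 25 ways to pair 1 rat of each group, 0 of the 13 probe sets had a false discovery rate (FDR) under 0.05, where 0.287% of all 31042 probe sets tested were called up-regulated and 0.599% down-regulated. The lowest FDR in the set was 0.214, for higher Nqo1. By limma, 0 of the 13 passed an adjusted p of 0.05 (0.0% of all probe sets passed), and 0 had an unadjusted p under 0.05, against 6.98% of all. In 0 of the 13 did the groups not overlap, against 1.29% of all probe sets. The iron-deficient mean was higher in 7 probe sets and lower in 6, with a median log2 fold change of 0.01, and the median over all probe sets was 0.00. With 13 probe sets, counts of 0 lie near these background shares.

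Nqo1, a quinone reductase that is a standard readout of NRF2 activity, had the largest difference of the set. Values are log2 RMA signals (background-corrected, normalized over the arrays and summarised per probe set), on which a difference of 1 is 2-fold, and they are compared between rats and not between probe sets. The log2 signal of Nqo1 in iron-deficient rats 1 to 5 was 10.02, 10.64, 10.27, 9.41 and 10.32, and in pair-fed rats 1 to 5 it was 10.19, 9.84, 9.91, 8.87 and 10.25. The highest rat was iron-deficient rat 2 and the lowest pair-fed rat 4, and the groups overlapped over most of their range. The means were 10.13 ± 0.46 in the iron-deficient and 9.81 ± 0.56 in the pair-fed group (SD, n = 5 each). The log2 fold change, iron-deficient minus pair-fed, was 0.32 (SE 0.264, 95% interval -0.25 to 0.89), a 1.25-fold difference with an interval of 0.840 to 1.86. It was smaller than the SD within groups of 0.51, and it did not pass (exact permutation test, 2-sided, p = 0.357, limma adjusted p = 0.837). Without pair-fed rat 4 it was 0.085 on the log2 scale.

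Gclc and Gclm encode the catalytic and the modifier subunit of glutamate-cysteine ligase, which carries out the rate-limiting step of glutathione synthesis. The brightest probe set of Gclc (1372523_at) read 12.18, 11.27, 11.45, 11.60 and 11.53 in the iron-deficient rats and 11.65, 11.50, 11.54, 11.84 and 11.56 in the pair-fed rats, in the order of their numbers. Iron-deficient rats held both the highest and the lowest value, so that the pair-fed values lay inside the iron-deficient range. The log2 fold change was -0.02 (SE 0.142, interval -0.32 to 0.29, exact permutation p = 0.921). The second probe set (1370688_at) had the same highest and lowest rats, a correlation with the first of 0.966 over the 10 arrays, and a log2 fold change of -0.03 (SE 0.178). Gclm read 11.96, 11.75, 11.43, 12.00 and 11.44 in the iron-deficient rats and 11.52, 11.90, 11.96, 11.57 and 12.00 in the pair-fed rats. The highest values of the groups were equal to 2 decimals, and the groups overlapped over most of their range. The means differed by -0.07 on the log2 scale (SE 0.137, interval -0.37 to 0.22, exact permutation p = 0.619).

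Txnrd1, the cytosolic thioredoxin reductase, and Srxn1, which reduces overoxidized peroxiredoxins, did not pass either. The brightest Txnrd1 probe set (1398791_at) read 10.30, 9.74, 9.84, 10.18 and 10.04 in the iron-deficient rats and 9.78, 9.91, 10.10, 10.01 and 10.33 in the pair-fed rats. The means differed by -0.00 on the log2 scale (SE 0.122, interval -0.27 to 0.26). The groups covered the same range, with iron-deficient rat 1 and pair-fed rat 5 at the top and iron-deficient rat 2 and pair-fed rat 1 at the bottom. The second Txnrd1 probe set (1386958_at) gave 0.05 (SE 0.190). For Srxn1 the brightest probe set (1372510_at) read 8.90, 8.10, 8.72, 8.86 and 8.18 in the iron-deficient rats and 8.22, 8.25, 8.59, 8.40 and 9.27 in the pair-fed rats. Pair-fed rat 5 was the highest of all 10, and iron-deficient rat 2 the lowest. The log2 fold change was 0.01 (SE 0.212, interval -0.45 to 0.47). A second bright probe set of Srxn1 (1384331_at) read 8.23, 6.97, 7.22, 7.56 and 6.99 against 6.98, 7.28, 6.97, 7.08 and 8.27, with 1 rat of each group, iron-deficient rat 1 and pair-fed rat 5, above 8 and the rest below it. Its log2 fold change was 0.07 (SE 0.277, interval -0.53 to 0.67). The third (1381067_at), at the 17.4th percentile of signal on the array, ranged over 0.293 and gave 0.04 (SE 0.065), and its correlation with the other 2 was 0.347 and 0.151.

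**Figure D1:**
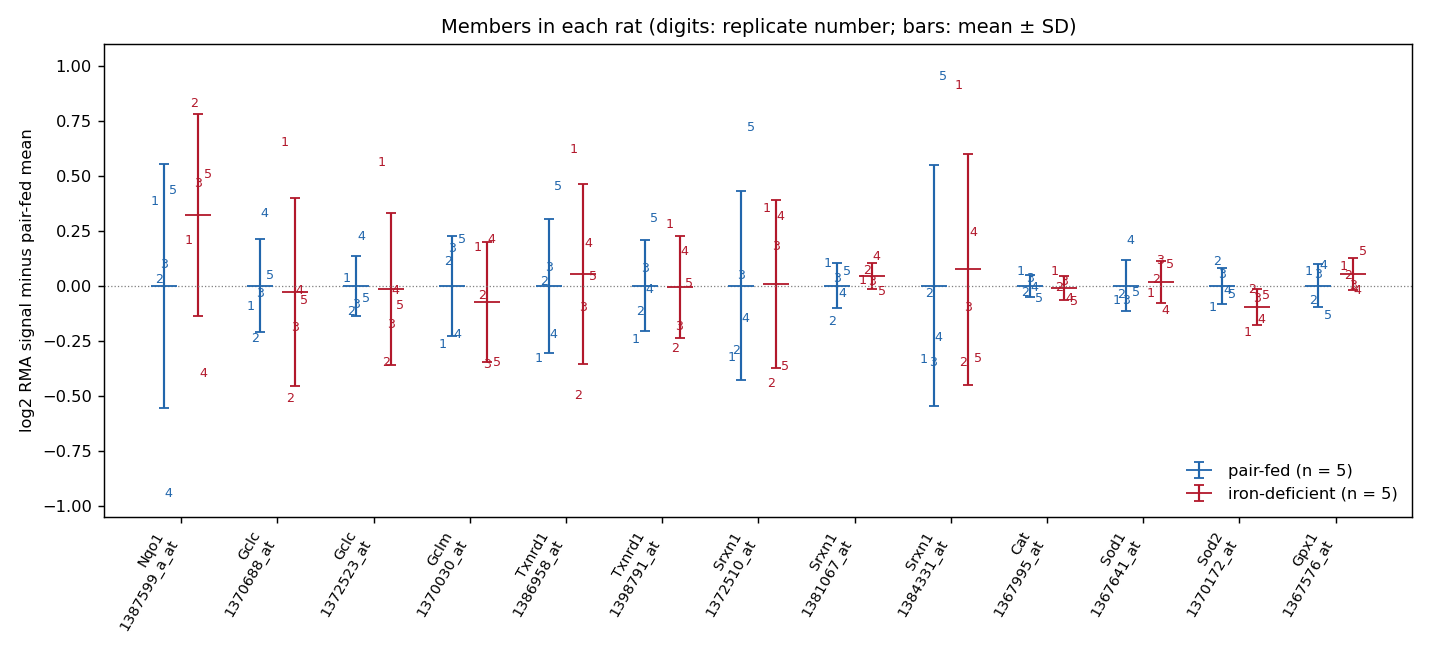
Log2 RMA signal of the 13 probe sets in each rat, as the difference from the pair-fed mean of that probe set (y axis); digits are replicate numbers, bars the mean and SD (n = 5 per group). The groups overlap in every probe set, and the spread is wide for Nqo1, Gclc, Txnrd1 and 2 of the probe sets of Srxn1 and narrow for Cat, Sod1, Sod2 and Gpx1.

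The enzymes that act on superoxide and hydrogen peroxide varied little between rats. Cat, the heme enzyme catalase, read 13.68, 13.60, 13.63, 13.55 and 13.54 in the iron-deficient rats and 13.68, 13.58, 13.64, 13.60 and 13.55 in the pair-fed rats. All 10 rats lay within 0.137 on the log2 scale, and the SD within groups (0.0533) was lower than that of all but 1.38% of probe sets. The group means differed by -0.01 on the log2 scale (SE 0.056), and the 95% interval of the fold ran from 0.912 to 1.08. Sod1, the copper and zinc superoxide dismutase of the cytosol, read 13.49, 13.56, 13.64, 13.42 and 13.63 against 13.46, 13.49, 13.46, 13.73 and 13.50. Pair-fed rat 4 was the highest of the 10, and the log2 fold change was 0.02 (SE 0.073, interval -0.14 to 0.18).

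Sod2, the manganese superoxide dismutase of mitochondria, had the lowest p of the set. It read 10.86, 11.06, 11.01, 10.92 and 11.03 in the iron-deficient rats and 10.97, 11.18, 11.12, 11.05 and 11.03 in the pair-fed rats. The 2 lowest rats were iron-deficient rats 1 and 4, the 2 highest were pair-fed rats 2 and 3, and the groups overlapped between 10.97 and 11.06. The log2 fold change was -0.10 (SE 0.065, interval -0.24 to 0.04, exact permutation p = 0.111, limma adjusted p = 0.799). Gpx1, the selenium-dependent glutathione peroxidase of the cytosol, read 14.28, 14.24, 14.19, 14.17 and 14.34 against 14.25, 14.12, 14.24, 14.28 and 14.05, and differed by 0.05 (SE 0.066, interval -0.09 to 0.20, exact permutation p = 0.365). Iron-deficient rat 5 was the highest and pair-fed rat 5 the lowest. The probe sets of Cat, Sod1 and Gpx1 were among the brightest 1% of the array, where the median SD within groups was 0.0908, and whether signal near the top of the scale narrows their differences was not tested.

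A missed threshold does not show that the diets gave equal levels, and the intervals bound the difference instead. The interval of Nqo1 reached furthest from 0, to 1.86-fold, and beyond Nqo1 no interval of the 13 reached further from 0 than 0.67 on the log2 scale, at Srxn1 (1384331_at). Besides Nqo1 the largest measured difference was that of Sod2, and the median size of the difference was 0.0433 on the log2 scale, against 0.0676 over all probe sets. Whole liver was measured, in which fewer cells of a type and less RNA per cell cannot be told apart.

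**Figure D2:**
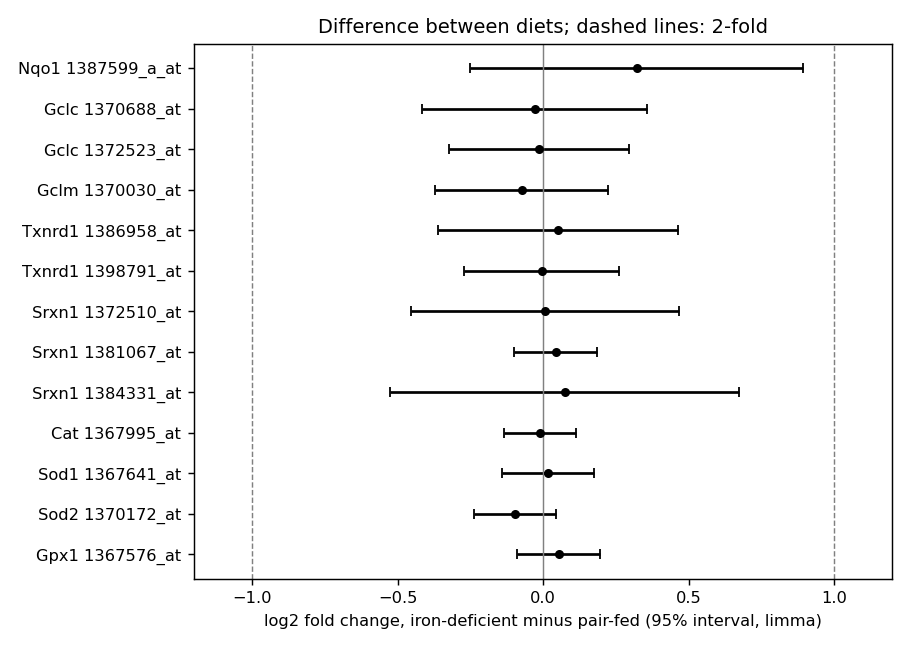
Log2 fold change of each probe set, iron-deficient minus pair-fed (x axis, points), with the 95% interval from limma (bars) and dashed lines at a 2-fold difference. Every interval holds 0 and lies inside the dashed lines, and that of Nqo1 reaches furthest, to 0.89.

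At every probe set of the inducible genes the SD within groups exceeded the difference between the groups. The SD within groups was 0.51 for Nqo1, 0.54 and 0.41 for the 2 bright probe sets of Srxn1, 0.36 and 0.22 for Txnrd1, 0.34 and 0.26 for Gclc and 0.25 for Gclm. The median over the 13 probe sets was 0.252, against 0.136 over all probe sets, and 0.133 over probe sets between the 65th and the 98th percentile of signal. Gclc had a higher SD in the iron-deficient rats, 0.35 against 0.14 at the brightest probe set and 0.43 against 0.21 at the other. Iron-deficient rat 1 lay apart at these probe sets, at 12.18 and 11.46. The other iron-deficient rats read 11.27 to 11.60 and 10.30 to 10.79, so the higher SD is not read as a trait of the group. Over the set the SD was higher in the iron-deficient group in 7 of 13 probe sets, against 63.3% of all probe sets, and the median ratio was 1.02 against 1.22. Iron-deficient rat 1, the highest rat for both probe sets of Gclc and for 1 of Txnrd1, was the array least like the rest (mean correlation with the other arrays 0.9915, against 0.9935 to 0.9941) and had the largest 3′ minus 5′ difference of the GAPDH control probe sets (0.36, against -0.05 to 0.11). Without this rat the log2 fold changes were -0.16 and -0.20 for Gclc, -0.07 and -0.09 for Txnrd1, and -0.08 and -0.13 for the bright probe sets of Srxn1, and none of the set passed the rank products.

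Of the 36 pairs of genes in the set, Txnrd1 and Srxn1 had the strongest correlation from rat to rat, though it did not pass correction. Over the 10 arrays, at the brightest probe set of each gene, Pearson's r was 0.80 (permutation p = 0.00633, adjusted over 36 pairs 0.228) and Spearman's rho 0.79 (permutation p = 0.00871, adjusted 0.314). Pair-fed rat 5 and iron-deficient rats 1 and 4 were the highest for both genes, and iron-deficient rat 2 was the lowest for both. Without pair-fed rat 5 and iron-deficient rat 2, the rats farthest from the median of Txnrd1, r was 0.64. With each group centred on its mean r was 0.80 (permutation p = 0.0171, adjusted 0.273), and it was 0.66 within the iron-deficient and 0.95 within the pair-fed rats. Leaving out 1 rat at a time gave r from 0.72 to 0.91, and only without iron-deficient rat 3 did a pair pass correction (exact permutation, adjusted p = 0.0154).

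For Gclm r was 0.64 to Txnrd1 (permutation p = 0.0507, adjusted 0.483) and 0.55 to Srxn1 (permutation p = 0.0975, adjusted 0.483). Between Gclm and Sod1 r was -0.71 (permutation p = 0.0227, adjusted 0.409) and rho -0.56. For Nqo1 r over the 10 rats was -0.45 to Gclc (-0.81 without iron-deficient rat 1 and -0.30 without iron-deficient rat 2), -0.14 to Gclm (-0.55 without pair-fed rat 4 and 0.0035 without iron-deficient rat 4), -0.27 to Txnrd1 (-0.064 without iron-deficient rat 2 and -0.45 without pair-fed rat 4) and -0.12 to Srxn1 (-0.35 without pair-fed rat 4 and 0.089 without iron-deficient rat 2). Within the pair-fed rats it was 0.43 to Gclm, 0.13 to Txnrd1 and 0.34 to Srxn1, against -0.61, -0.73 and -0.76 within the iron-deficient rats. To Gclc it was -0.77 within the pair-fed and -0.42 within the iron-deficient rats. None of these pairs passed correction, and no direction is read from them. Of the 36 pairs, 0 had an adjusted p under 0.05 by either coefficient. The points share the normalization and, for the rats that lie far out, the array.

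**Figure D3:**
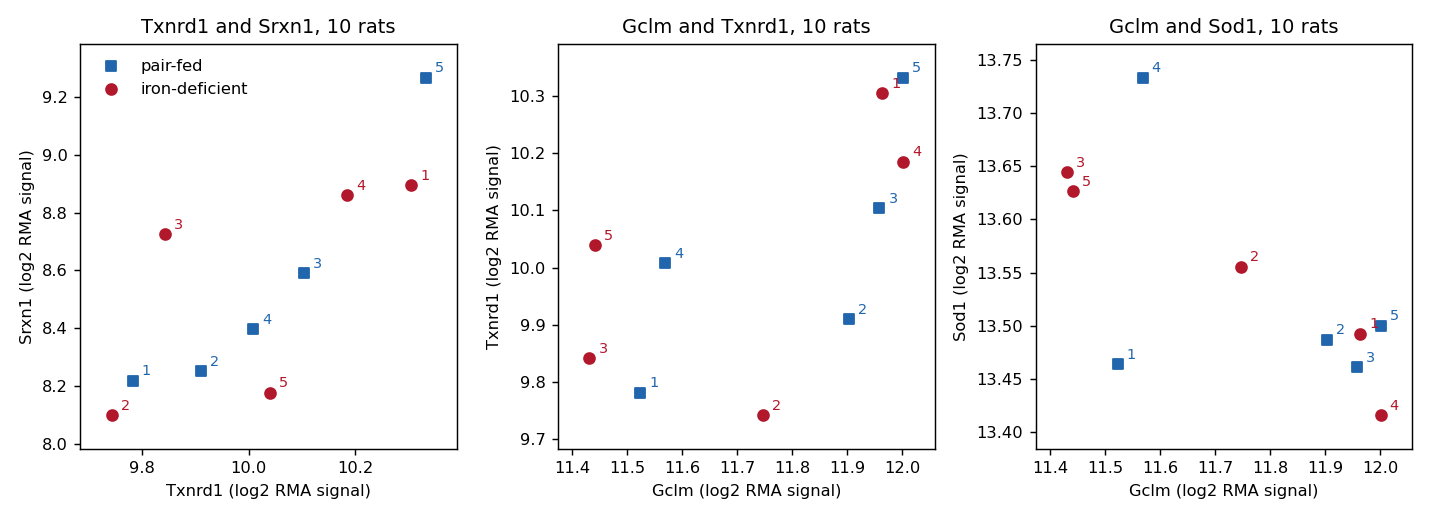
Log2 RMA signal of pairs of genes at their brightest probe sets in the 10 rats (digits, replicate numbers). Txnrd1 and Srxn1 lie near a rising line (r = 0.80), Gclm and Txnrd1 do so less tightly (r = 0.64), and Gclm and Sod1 lie near a falling one (r = -0.71), and none of these correlations passed correction over 36 pairs.

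Of 102 other measured genes in 7 lists of the pathway, 0 were up-regulated and 1 was down-regulated by rank products, against 0.302% and 0.781% of all genes. The median log2 fold change of the 102 was -0.02, against -0.01 over all genes. By limma 7 of the 102 had an unadjusted p under 0.05, against 7.85% of all genes. The lowest was that of Cbr1, an NRF2 target named after its values were seen. It differed by -0.26 on the log2 scale and did not pass (SE 0.077, limma adjusted p = 0.601, FDR 0.455). The groups did not overlap for 3 of the 102 (Esd, Glrx and Txnrd3), against 1.62% of all genes. Esd and Txnrd3 are named for this count, after their values were seen. Of NRF2, its partners and repressors, 10 of 10 were measured and 0 passed, with a median of -0.02. Nfe2l2 itself read 11.27, 11.14, 10.69, 10.79 and 10.91 in the iron-deficient rats and 10.80, 10.78, 10.84, 11.09 and 10.99 in the pair-fed rats, and the log2 fold change was 0.06 (SE 0.111). Keap1, its repressor, differed by -0.06 (SE 0.056). The largest differences in this list were those of Rbx1 (-0.11) and Cul3 (-0.07), parts of the ligase that takes up NRF2 through KEAP1, and Bach1 (0.08), a heme-binding repressor that competes with NRF2.

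Of other genes known to be induced through NRF2, 24 of 28 were measured and 0 passed, with 13 higher, 11 lower and a median of 0.05. Hmox1, heme oxygenase 1, read 8.89, 8.44, 8.42, 8.75 and 8.49 in the iron-deficient rats and 8.57, 8.87, 8.93, 8.70 and 10.19 in the pair-fed rats. Its mean difference was -0.46 (SE 0.25, FDR 0.122), and -0.17 (FDR 0.908) without pair-fed rat 5, which at 10.19 stood above the other 9. This rat was also the highest at the brightest probe sets of Srxn1 and Txnrd1. Akr7a3, an aldo-keto reductase, differed by -0.36 (SE 0.217) and Pir by 0.34 (SE 0.219). Osgin1, named after its values were seen, read 10.75, 10.22, 10.02, 11.13 and 9.98 against 10.30, 10.49, 10.99, 10.63 and 11.19. It was highest in pair-fed rat 5 and iron-deficient rat 4. Pgd, also named after its values were seen, differed by 0.34 (SE 0.156) and was lowest in these rats, at 8.98 and 8.99. No pattern over the list is read from genes picked in this way. Esd, an esterase, differed by -0.16 (SE 0.060, exact permutation p = 0.00794, limma adjusted p = 0.662, FDR 0.955).

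In the glutathione system, 17 of 17 genes were measured, with 4 higher, 13 lower and a median of -0.03. Chac1 was the 1 that passed the rank products, as lower. Chac1, which degrades glutathione and is a known target of the amino acid and endoplasmic reticulum stress response, read 7.48, 7.74, 7.45, 7.33 and 7.41 in the iron-deficient rats and 7.70, 7.65, 8.66, 9.09 and 7.47 in the pair-fed rats. Pair-fed rats 3 and 4 stood above the rest, and the other 3 lay within the range of the iron-deficient rats. For Chac1 the log2 fold change was -0.63 (SE 0.268, FDR 0.0158, limma adjusted p = 0.684), and the call was lost without pair-fed rat 3 (-0.50, FDR 0.212) and without pair-fed rat 4 (-0.39, FDR 0.319). Glrx, glutaredoxin, was lower in all 5 iron-deficient rats (11.21 to 11.36) than in any pair-fed rat (11.38 to 11.59). Its log2 fold change of -0.20 did not pass (SE 0.063, FDR 0.812, limma adjusted p = 0.616). Gpx7 differed by 0.19 (SE 0.138).

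The remaining lists held no gene past the rank products. Of the thioredoxins, peroxiredoxins and methionine sulfoxide reductases 19 of 19 were measured, with a median of -0.03, and the largest differences were those of Txnip (0.19, SE 0.075), an inhibitor of thioredoxin, Msrb3 (0.19) and Msra (-0.16). Txnrd3, at 7.77 to 7.92 against 7.95 to 8.05, differed by -0.14 (SE 0.058, FDR 1, limma adjusted p = 0.675). Extracellular superoxide dismutase, copper chaperones and metal-binding genes (8 of 8) had a median of -0.01, with Mt2A, a metallothionein, at -0.23 (SE 0.197), Ccs, the copper chaperone of Sod1, at -0.18 (SE 0.108) and Mt1 at -0.11. Selenoproteins and genes of selenocysteine insertion (11 of 11) had a median of 0.05, with Dio1 at -0.26, Selenow at 0.16 and Selenot at 0.11. Peroxisomal oxidases and peroxins (13 of 16) had a median of -0.05, with Pex11a at -0.30 (SE 0.256), Acox2 at 0.26 (SE 0.485) and Hao2 at -0.17.

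**Figure D4:**
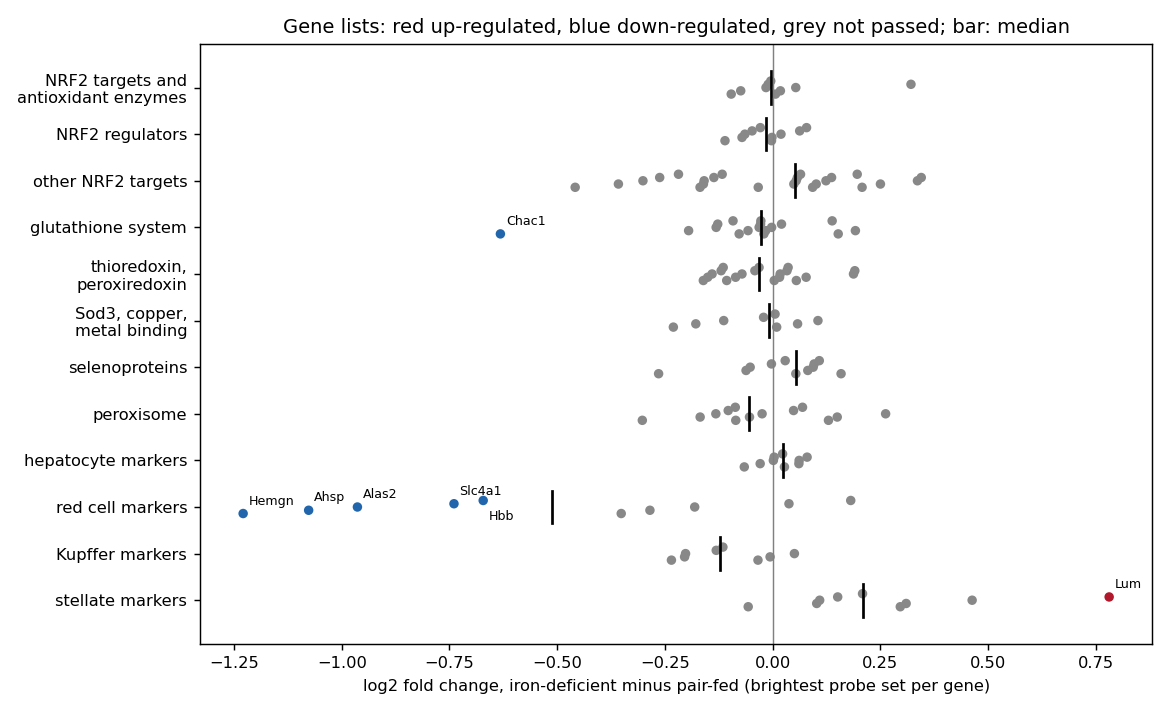
Log2 fold change, iron-deficient minus pair-fed, of each measured gene (points, brightest probe set) in the set, the pathway lists and 4 lists of cell type markers, with the median of each list (bars). In the pathway lists only Chac1 passed the rank products, and of the markers shown 5 red cell genes passed as lower and Lum passed as higher.

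The labelled tissue was checked by its markers, and 9 of 10 hepatocyte markers were measured, 0 of them past the rank products, at a mean log2 signal of 14.34 to 14.41 on the 10 arrays. Of red cell and erythroblast markers 10 of 12 were measured, and 5 passed as lower (Hbb, Alas2, Hemgn, Ahsp and Slc4a1, log2 fold changes of -1.23 to -0.67). Of the 10, 8 were lower and 2 higher (Tfrc, 0.18, and Kel, 0.04), with a median of -0.51. Tfrc, at the 98.9th percentile of signal, encodes the transferrin receptor, which the paper describes as regulating iron uptake into cells. Whether its signal came from red cells was not tested. The mean signal of the 10 was 7.09 to 7.57 in the iron-deficient and 7.37 to 8.11 in the pair-fed livers. Cat, Sod1 and Gpx1, whose proteins are also abundant in red cells, differed by -0.01, 0.02 and 0.05 in whole-liver RNA. Prdx2, the red cell peroxiredoxin, differed by -0.09 (SE 0.077). These signals are not separated by cell type, so nothing about red cells is read from them. Of stellate cell markers 9 of 9 were measured, with 8 higher, 1 lower and a median of 0.21. Lum, an extracellular matrix proteoglycan at the 26.3rd percentile of signal, passed as higher by 0.78 (SE 0.280). This call was lost without iron-deficient rat 1 (0.54, FDR 0.0576). Of the markers of Kupffer cells (8 of 10 measured), endothelium (6 of 8), lymphoid cells and neutrophils (9 of 10) and bile ducts (5 of 6), 0 passed. Their medians were -0.12 (1 higher and 7 lower), 0.06 (5 and 1), -0.11 (2 and 7) and -0.01 (2 and 3). The part of these cell types in the values of the set was not tested.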

How the data were processed

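Liver total RNA of 10 rats was hybridised to 1 Affymetrix rat array each. The authors quantified the arrays by RMA in R and Bioconductor, and the log2 RMA signals are used as deposited, with all 10 arrays and every column kept. The number of arrays limits the precision. Replicates are separate rats, grouped by title. Of 31099 probe sets 57 array controls were left out. The platform annotation pairs 20826 of the rest with 1 gene, 436 with several and 9780 with none.

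Rank products were computed in Python 3.11.15 (numpy 2.4.6, pandas 2.3.3, scipy 1.17.1) over 25 pairs of arrays with 100 permutations and an FDR threshold of 0.05. The R package limma (version 3.58.1, R 4.3.3) was fitted to all 31042 probe sets and gave fold changes, standard errors, intervals and Benjamini-Hochberg adjusted p-values. Single probe sets were compared by 2-sided exact permutation tests, whose smallest p is 0.00794, and correlations by 100000 resamples. The rank products and limma were also run on simulated data with independent normal noise at each probe set, unlike real arrays. No result here rests on that run. Figures were drawn with matplotlib 3.10.9. A gene in a list is given by its brightest probe set.

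The genes of the set and of the lists were chosen with earlier results of these data known. All probe sets of the set are named. In each pathway list the genes past the rank products are named and, up to 3, those with the largest difference, and in marker lists those past the rank products. Promoter sequences are RefSeq's, assembly GRCr8. Alternatives were the rank sum, a filter on dim probe sets, the replicate number as a block, array medians set equal, an intensity trend, array weights, the mean over probe sets, and each array left out. Same-numbered rats did not deviate together, and the numbers were not taken as pairs.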

Additional observations from a re-analysis of the deposited data

Results flagged for a closer look

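In 2 of the 26 groups of 5 values examined (13 probe sets in 2 diet groups), 1 rat lay far from the others by Dixon's ratio, the gap to the nearest rat over the whole range, whose 95% critical value for 5 samples is 0.71. Chance flags about 1 in 20 such groups. For Srxn1 (1384331_at) pair-fed rat 5 was at 8.27, with the other pair-fed rats at 6.97 to 7.28, a ratio of 0.758. For Sod1 (1367641_at) pair-fed rat 4 was at 13.73, with the others at 13.46 to 13.50, a ratio of 0.855.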

How the results depend on the processing

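The count of probe sets of the set past the rank products was 0 in every alternative run. Over all probe sets, the rank products called 89 up and 186 down. The rank sum called 3 and 29. Leaving out 1 array gave 47 to 102 up (47, 54 and 56 without iron-deficient rats 2, 3 and 5) and 90 to 188 down (115 without iron-deficient rat 5, and 90, 106 and 99 without pair-fed rats 2, 3 and 5). The count past limma's adjusted p of 0.05 was 0 (2168 at an unadjusted p under 0.05) and 0 to 1 with 1 array left out (1 without pair-fed rat 2, Psmg3, and 1 without pair-fed rat 4, Serpinb9b). With array weights, which were 0.445 for iron-deficient rat 1 and 0.860 to 1.38 for the others, the log2 fold change became -0.026 for Txnrd1 (1386958_at) and -0.040 and -0.032 for Srxn1 (1372510_at and 1384331_at). Leaving out 1 array at a time, the sign turned for Gclc (-0.20 to 0.093 for 1370688_at and -0.16 to 0.068 for 1372523_at), Txnrd1 (-0.091 to 0.19 for 1386958_at and -0.075 to 0.072 for 1398791_at), Srxn1 (-0.079 to 0.19 for 1372510_at and -0.13 to 0.31 for 1384331_at), Cat (-0.029 to 0.0064) and Sod1 (-0.0064 to 0.069). It held for Nqo1 (0.085 to 0.50), Gclm (-0.15 to -0.00), Srxn1 1381067_at (0.00 to 0.07), Sod2 (-0.12 to -0.07) and Gpx1 (0.02 to 0.08). The median of the other NRF2 targets ran from -0.063, without iron-deficient rat 1, to 0.053. The hepatocyte median was 0.061 with the mean over the probe sets of a gene, against 0.023. The number of correlated pairs was 0 to 1 with 1 array left out (1 without iron-deficient rat 3, Txnrd1 and Srxn1). With the replicate number as a block, the rank products called 82 up and 153 down and limma 0, and the deviations of same-numbered rats gave correlations of -0.04 to 0.09, with 1 of 5 rats correlating best with its own number. In all, a sign turned 31 times over the 13 probe sets and the alternatives, and a probe set that turned in several alternatives was counted in each. List medians near 0 had the other sign in 17 of 180 alternatives, 5 of them for the set itself (-0.0044, with a range of -0.068 to 0.055). Another random seed called 93 up and 174 down. That seed, the permutation test of the correlations centred by group, the list medians with array medians set equal, the leave-one-out fits of the correlations, of the list medians and of Hmox1, and the motif TGAGNNNGC were added after seeing the data. The causes of these shifts were not tested.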
